A study of Mus musculus with 16 samples.

Results

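The genes that make, load, sense and clear GABA were followed through the cell classes of the mouse hippocampus. The 26 genes were taken from a list of names: GABA-A receptor subunits (Gabra2, Gabra3, Gabra4, Gabra5, Gabra6, Gabrb1, Gabrb2, Gabrg1, Gabrg3, Gabrd, Gabre, Gabrq), GABA-B receptor subunits (Gabbr1, Gabbr2), the enzymes and vesicular transporter of GABA release (Gad1, Gad2, Slc32a1), uptake and breakdown (Slc6a11, Slc6a13, Abat, Aldh5a1), and proteins that anchor or assist the receptors (Gphn, Nlgn2, Clptm1, Shisa7, Lhfpl4). All 26 were found among the 32285 genes of the deposited tables. Nuclei came from the hippocampus of female mice aged 9 months, in 16 libraries. There were 4 libraries in each of 4 groups: intact Ch25h with tau (labelled CH25H_+/+_Tau_+ and written here as Ch25h+/+ Tau+), intact Ch25h without it (Ch25h+/+ Tau-), and a homozygous loss of Ch25h with or without tau (Ch25h-/- Tau+, Ch25h-/- Tau-). The labels do not state that each library is a separate mouse, so p-values measure the spread between libraries. Ch25h encodes cholesterol 25-hydroxylase. The labels name neither the tau line with its promoter nor the allele that removes Ch25h, so the cells that carry the transgene are not known from them. The title of the study links CH25H to innate immunity and to tau. The comparisons here cover the effect of tau, the effect of losing Ch25h, and their interaction.

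GABA is the main inhibitory transmitter of the forebrain. Interneurons make it from glutamate with the decarboxylases GAD67 (Gad1) and GAD65 (Gad2) and load it into vesicles with VGAT (Slc32a1). GABA-A receptors are pentameric chloride channels whose alpha, beta and gamma or delta subunits set where they sit and how they respond, and GABA-B receptors are G-protein coupled heterodimers of Gabbr1 and Gabbr2. Astrocytes and neurons remove GABA through transporters of the Slc6a family, and the transaminase Abat with the dehydrogenase Aldh5a1 breaks it down.

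Each library held 51270831 to 84870650 UMIs (unique molecular identifiers, 1 per captured RNA molecule) and 8130 to 11654 nuclei with a median of 3846 to 6508 UMIs. Of 136828 nuclei kept after removing 11045 called as doublets, 120270 fell in clusters named from marker lists that hold none of the 26 genes. Class names are rebuilt from those markers and mean "like" the cell type. Genes were tested in 9 classes and in 5 interneuron subclasses. These subclasses together make up the inhibitory class, so values of the inhibitory neurons and their subclasses share nuclei. Any pair of libraries shared 10 to 40 cell barcodes, at most 0.465% of the smaller library. Libraries also separated in a way the groups do not explain: the first principal component of their deviations from the group means held 36.9% of the variance and put replicates 1 and 2 of every group on one side and 3 and 4 on the other. Ch25h itself gave 94 UMIs over all nuclei of Ch25h+/+ Tau+ and 38 without tau. Libraries labelled as lacking Ch25h gave 96 with tau and 76 without, so its count did not separate the genotypes, which are those of the labels throughout. Microglia held 33 of these UMIs in Ch25h+/+ Tau+, 7 where Ch25h was labelled as lost and tau was present, and 0 without tau.

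Stretches before RefSeq transcript starts of 4 genes are shown because the results turn on them: Gad1 and Gad2 differ in where they were read, and Gabbr1 and Gabrg1 are the genes called for tau. They come from RefSeq (GRCm38.p6), are written 5′ to 3′ in the direction of the gene, and stop where an annotated exon of GENCODE M21 begins. The Gad1 gene of GENCODE M21 begins upstream, at chr2:70553072-70602014, so the Gad1 stretch lies inside that gene model and not before it. Capitals mark GGGCGG or TATAAA on either strand (CCGCCC and TTTATA are their reverse complements).
Gad1 (chr2:70561879-70562041, + strand): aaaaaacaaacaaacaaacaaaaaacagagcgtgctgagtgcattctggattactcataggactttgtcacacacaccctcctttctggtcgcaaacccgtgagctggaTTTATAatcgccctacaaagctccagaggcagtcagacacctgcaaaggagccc
Gad2 (chr2:22622077-22622204, + strand): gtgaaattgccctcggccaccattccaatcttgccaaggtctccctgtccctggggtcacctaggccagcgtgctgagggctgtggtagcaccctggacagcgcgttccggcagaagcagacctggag
Gabbr1 (chr17:37045716-37045965, + strand): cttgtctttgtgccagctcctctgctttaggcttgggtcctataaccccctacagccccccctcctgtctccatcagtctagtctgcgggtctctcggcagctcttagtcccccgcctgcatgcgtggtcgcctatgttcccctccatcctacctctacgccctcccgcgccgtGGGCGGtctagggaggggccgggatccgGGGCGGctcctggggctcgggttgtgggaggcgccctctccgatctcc
Gabrg1 (chr5:70842618-70842867, - strand): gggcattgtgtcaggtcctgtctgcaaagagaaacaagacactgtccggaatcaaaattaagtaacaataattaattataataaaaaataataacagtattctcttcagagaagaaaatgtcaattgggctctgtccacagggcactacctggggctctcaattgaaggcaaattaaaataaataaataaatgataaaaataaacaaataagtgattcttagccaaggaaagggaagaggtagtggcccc
The stretch before Gabbr1 holds 2 copies of GGGCGG at 66.0% G and C, and the stretch before Gabrg1 holds neither motif at 35.6% G and C. The stretch before Gad1 holds 1 copy of TATAAA and that before Gad2 neither motif. In full RefSeq windows, from 250 bases before to 50 after a start, 24 members had 30 windows, of which GGGCGG occurred in 16 (53.3%) and TATAAA in 4 (13.3%). Over all 32851 windows of that length the shares were 35.7% and 13.6%. A match describes the letters only.

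GABA synthesis was read where interneurons are, with an exception for Gad1. Values are CPM (counts per 1000000 UMIs of the class, TMM-scaled) as mean ± SD over n = 16 libraries, and no test compares classes, since classes were built from the same nuclei. Highest, lowest and next values are among the 14 classes and subclasses tested, and 6 sparser classes are given as sums of all libraries where named. Gad2, which encodes the decarboxylase bound to synaptic vesicles, read 338 ± 36.6 CPM in inhibitory neurons. Its highest subclass was Lamp5 interneurons (711 ± 88.8 CPM) and its lowest was Pvalb interneurons (183 ± 20.1 CPM). In the 8 other classes Gad2 averaged at most 4.08 CPM. Slc32a1 was likewise low outside the interneurons, at most 5.81 CPM in the 8 other classes. Its means in the 5 subclasses, 71.7 to 97.5 CPM, were closer to each other than those of Gad2. For both genes, the profile of barcodes under 100 UMIs (ambient RNA, free in the suspension) accounted for 84.9 to 100% of what was read outside inhibitory neurons. The ambient fraction of a class was the lowest estimate from markers of other main classes. Shares of a gene were capped at 100% and are estimates throughout.

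Gad1, which encodes the soluble decarboxylase, was also read outside the interneurons. It reached 592 ± 83.5 CPM in Lamp5 and 198 ± 39.0 CPM in Sst interneurons. Oligodendrocyte precursors (OPCs) read 73.5 ± 13.8 CPM, from 54.1 to 103 over the 16 libraries. Granule neurons of the dentate gyrus (DG) read 43.2 ± 4.56 CPM, from 35.6 to 52.2. The lowest OPC library lay above the highest DG library, and the lowest DG library lay above every astrocyte library, at most 15.0 CPM. Ambient RNA accounted for 6.40% of Gad1 UMIs in OPCs and 17.8% in DG granule neurons, 55.9% in astrocytes, which averaged 7.11 CPM, and 100% in CA1 and CA3 pyramidal neurons, which averaged 1.02 and 0.786 CPM. In the same DG nuclei Gad2 and Slc32a1 averaged 1.30 CPM each, and in OPCs 4.02 and 2.42 CPM. In DG granule neurons and OPCs, Gad1 was read above the ambient estimate, while Gad2 and Slc32a1 were near or below it. The ambient fraction of DG granule neurons, 13.8%, would give more Gad2 and Slc32a1 than was read. Shares of Gad2 and Slc32a1 also reached the cap of 100% in CA1 and CA3 pyramidal neurons and in astrocytes. Ambient shares in DG granule neurons and in these classes may therefore be too high.

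**Figure D1:**
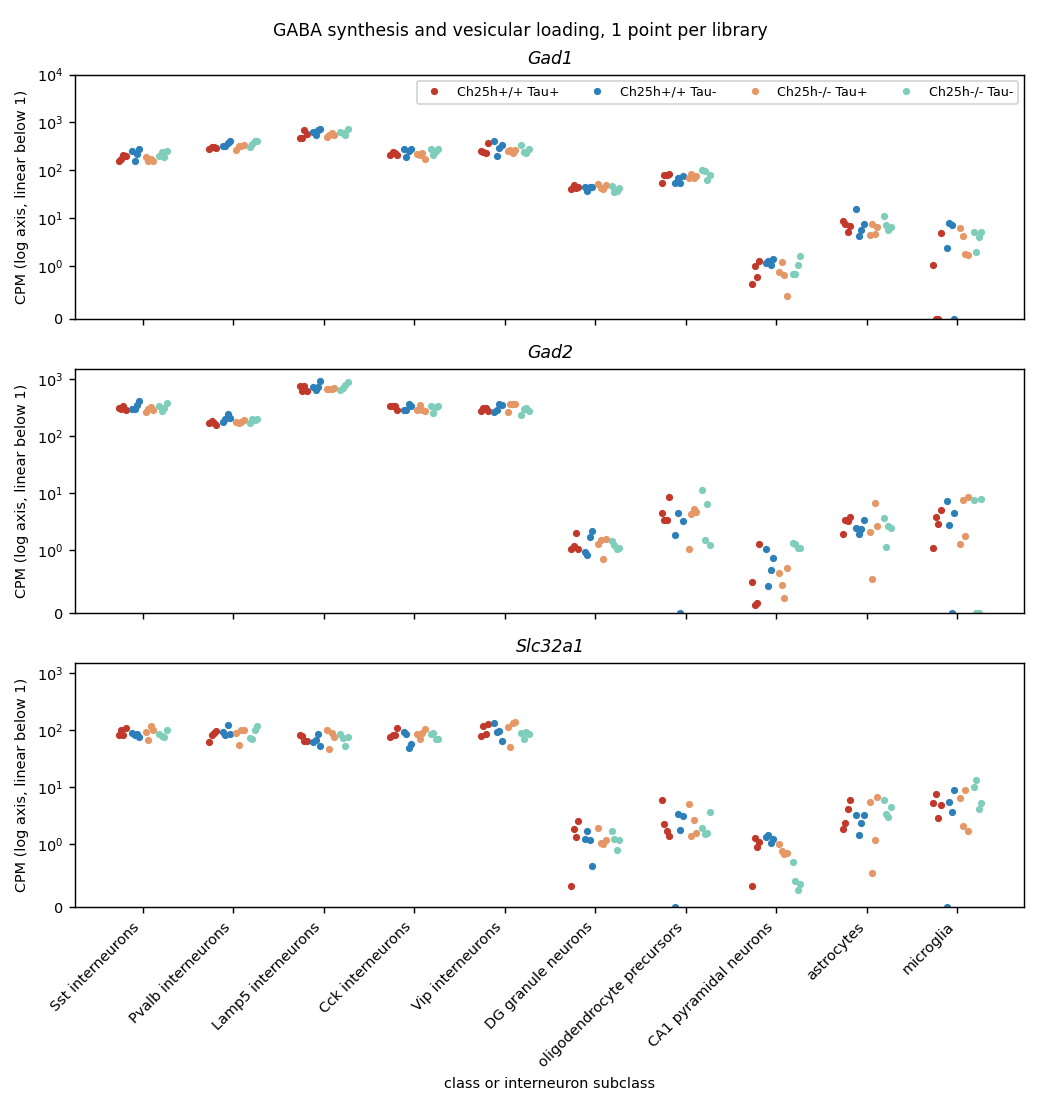
CPM of Gad1, Gad2 and Slc32a1 (y axis, logarithmic above 1 and linear below) in 5 interneuron subclasses and 5 other classes (x axis), 1 point per library, coloured by group. Gad1 in DG granule neurons (35.6 to 52.2 CPM) and OPCs (54.1 to 103 CPM) lies above the other classes outside the interneurons shown, while Gad2 and Slc32a1 do not.

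Receptor subunits differed in level between principal cells and interneuron subclasses, with overlaps for several of them. Gabra4, an alpha subunit that joins delta in receptors outside synapses, read 238 ± 14.5 CPM in DG granule neurons, where every library (210 to 263) lay above all other classes, and 126 ± 18.6 CPM in Pvalb interneurons, the next. Gabrd, the delta subunit, read 44.0 ± 4.95 CPM in DG granule neurons, 62.2 ± 9.86 in Pvalb and 43.3 ± 11.5 in Lamp5 interneurons, and these 3 overlapped in range. In Sst, Cck and Vip interneurons Gabrd averaged 3.38, 2.09 and 1.06 CPM, of which ambient RNA accounted for 40.5, 78.6 and 100%. Gabra5, an alpha subunit known from tonic inhibition of pyramidal cells, read 196 ± 17.1 CPM in CA3 and 185 ± 12.9 in CA1 pyramidal neurons, whose ranges overlapped, 136 ± 13.5 in DG granule neurons and 9.84 ± 3.48 in Sst interneurons. Gabra2, a synaptic alpha subunit, read 685 ± 101, 637 ± 76.3 and 603 ± 73.8 CPM in DG, CA1 and CA3 neurons with overlapping ranges, and 67.4 ± 12.4 in Pvalb interneurons. It was not limited to principal cells: the sparse Cajal-Retzius cells summed to 669 CPM, and astrocytes are given below. Gabra3 read 124 ± 13.2 CPM in Sst interneurons, 12.7 ± 1.91 in CA3 and 1.16 ± 0.479 in DG granule neurons, the last accounted for by ambient RNA.

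Lamp5 interneurons stood highest for several subunits. Gabrg3, a gamma subunit, averaged 3844 CPM there and 2809 in Pvalb interneurons, with overlapping ranges, against 522 in Sst interneurons and 130 in DG granule neurons. Gabrb2, a beta subunit, averaged 1017 CPM in Lamp5 interneurons, where every library (914 or more) lay above the highest Pvalb library (646). Gabbr2, the GABA-B subunit that couples to G proteins, read 770 ± 102 CPM in Lamp5 interneurons, 499 ± 29.2 in CA3 pyramidal neurons and 143 ± 16.3 in Cck interneurons. Gabbr1, the subunit that binds GABA, varied less, from 74.6 ± 9.50 CPM in OPCs to 218 ± 20.1 in astrocytes.

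Astrocytes read high for 2 receptor subunits and for GABA clearance. Gabrb1, a beta subunit, averaged 3852 CPM in astrocytes against 1496 in CA3 pyramidal neurons, the next, with no overlap between their libraries. Gabrg1, a gamma subunit, read 133 ± 24.3 CPM in astrocytes, 61.5 ± 11.7 in OPCs and 38.9 ± 11.4 in Sst interneurons, and every astrocyte library (90.6 or more) lay above every OPC library (at most 83.2). In the sparse Cajal-Retzius cells Gabrg1 summed to 93.4 CPM. Gabra2 read 549 ± 76.2 CPM in astrocytes, while Gabrb2 read 10.8 ± 5.29 and was accounted for by ambient RNA to 99.7%. Slc6a11, which encodes the GABA transporter GAT3, read 277 ± 56.7 CPM in astrocytes and 40.7 ± 12.3 in Vip interneurons, the next of the 14, again without overlap, and the sparse ependymal cells summed to 53.1 CPM. Abat, the transaminase, read 129 ± 20.8 CPM in astrocytes, 148 ± 15.8 in inhibitory neurons and at most 50.7 in the other 7 tested classes, while the sparse Cajal-Retzius, ependymal and choroid plexus cells summed to 133, 130 and 128 CPM. Aldh5a1 ranged from a mean of 6.04 CPM in microglia to 30.8 ± 8.07 in astrocytes, where its range overlapped that of the interneuron subclasses.

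The anchoring and accessory proteins were spread widely. Gphn, the scaffold gephyrin that also makes the molybdenum cofactor, read 1409 ± 118 CPM in astrocytes, 1008 ± 73.7 in oligodendrocytes and 357 ± 35.3 in microglia. Nlgn2, the adhesion protein neuroligin 2 of inhibitory synapses, read 91.8 ± 19.4 CPM in OPCs and 13.9 ± 3.36 in oligodendrocytes. Clptm1, which limits receptor delivery to the surface, stayed between 32.7 and 54.0 CPM in the 14 classes and subclasses tested. Shisa7, an auxiliary subunit, averaged 87.0 ± 8.23 CPM in CA1 pyramidal neurons, the highest of the 14, and 5.35 ± 3.05 in astrocytes, the lowest of them, with sums of 3.49 and 4.18 CPM in the sparse choroid plexus and endothelial cells. Lhfpl4, which helps to cluster receptors at synapses, ranged from 8.71 ± 6.11 CPM in microglia to 39.9 ± 7.08 in Vip interneurons among the 14, and summed to 2.75 CPM in choroid plexus and 47.5 in Cajal-Retzius cells.

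**Figure D2:**
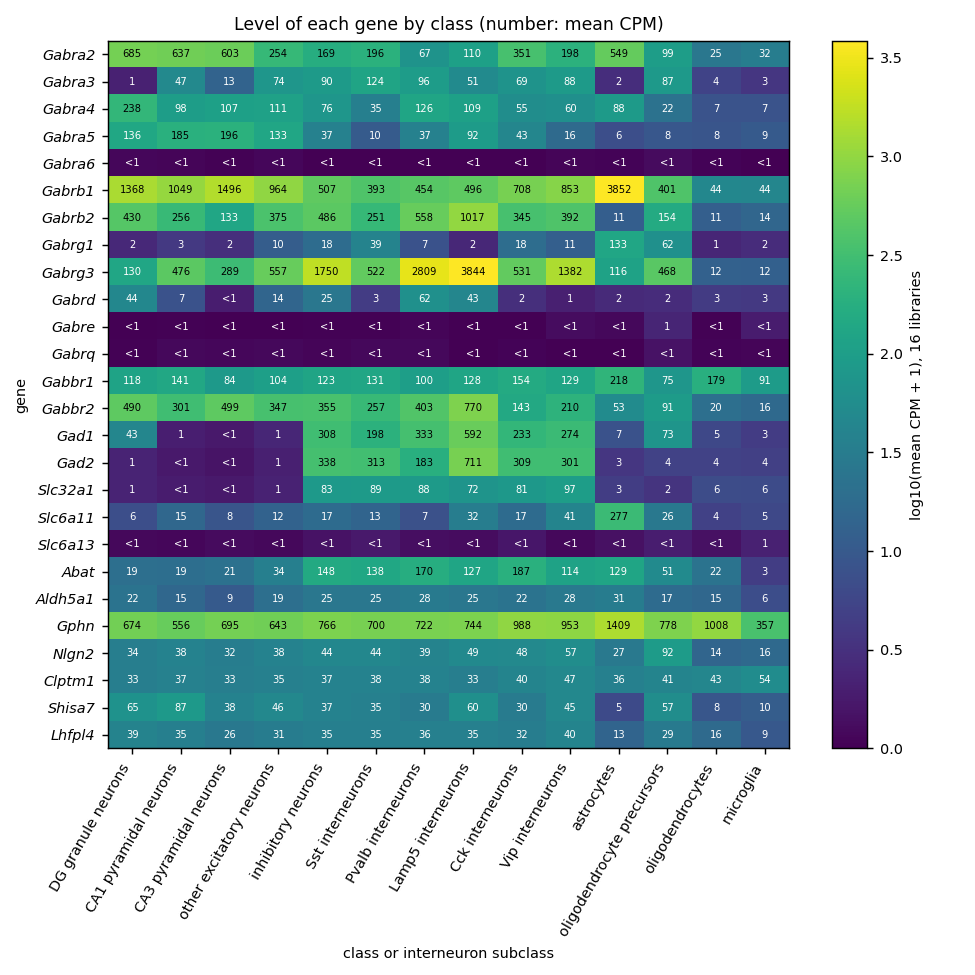
Mean CPM over 16 libraries of the 26 genes (rows) in 9 classes and 5 interneuron subclasses (columns), with colour on a log10(CPM + 1) scale and the mean printed in each cell. Rows are to be read across: Gabrb1 and Slc6a11 peak in astrocytes, Gabra4 in DG granule neurons, and Gabrb2 and Gabrg3 in Lamp5 interneurons.

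Slc6a13, Gabre, Gabrq and Gabra6 averaged at most 1.38 CPM in the 14 classes and subclasses and none passed the filter on low counts there. Slc6a13, which encodes GAT2, had 5074 UMIs in 2904 fibroblasts, 810 CPM over the summed libraries, against 62.7 CPM in mural and 29.3 in endothelial cells, classes too sparse in some libraries to be tested. Gabre, the epsilon subunit, reached 7.83 CPM in fibroblasts (49 UMIs) and 6.23 in choroid plexus cells (59 UMIs). Gabrq, the theta subunit, had at most 1 UMI in any of these sparse classes.

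Gabra6, the alpha subunit best known from cerebellar granule cells, was found mainly in a single shallow cluster that was left unnamed. The cluster held 1615 nuclei with a median depth of 0.222 of that of their libraries, and 461 Gabra6 UMIs, 79.5% of all. Unlike the other values, these Gabra6 counts keep nuclei called as doublets, which were 17.0% of the cluster. Gabra6 read 181 CPM there against 0.129 in all other nuclei. Its other leading genes included Cbln3 and Fat2, also known from cerebellar granule cells, at 31.8 and 104 CPM, and Gh, Prl and Pomc, which encode pituitary hormones, at 247, 517 and 659 CPM. The haemoglobin genes Hba-a1 and Hbb-bs were also among them, with Hbb-bs at 53.0 CPM. The 16 libraries gave 0 to 120 Gabra6 UMIs in that cluster, with the lowest in Ch25h+/+ Tau+ replicate 4 and the highest in Ch25h-/- Tau- replicate 2. What these nuclei are was not tested.

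**Figure D3:**
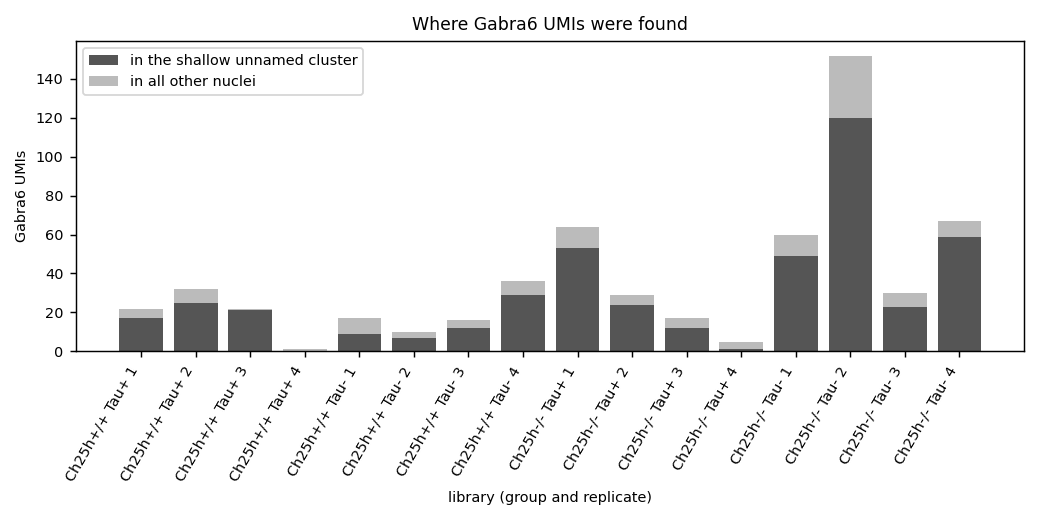
Gabra6 UMIs (y axis) in each of 16 libraries (x axis, group and replicate), divided into those of the shallow unnamed cluster (dark) and those of all other nuclei (light). Nuclei called as doublets are included. The libraries of a group differ widely, from 0 to 25 in Ch25h+/+ Tau+ and from 23 to 120 in Ch25h-/- Tau- within the cluster.

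Tau changed few of these genes at the adjusted threshold. In the comparison of Tau+ with Tau- over both Ch25h genotypes, 269 pairs of a gene and a class or subclass were tested, and 2 pairs passed an adjusted p of 0.05 (edgeR quasi-likelihood test, Benjamini-Hochberg over all genes of the class), both lower in Tau+. Over all genes of the 14 classes and subclasses 0.783% of 164031 pairs were called, so the members' count is near that background. Lower values were the more common, with 173 of 269 pairs below 0, and 11.9% of member pairs against 8.79% of all pairs had an unadjusted p under 0.05. Over all genes, the median log2 fold change of a class or subclass lay between -0.008 and 0.005. The pairs repeat genes over classes and share nuclei between inhibitory neurons and their subclasses. Oligodendrocytes gave 18 of the 173, and a shift of the genes as a set was not tested. The pairs called were Gabbr1 in microglia and Gabrg1 in astrocytes.

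Gabbr1 in microglia read 58.4, 61.1, 66.2 and 68.6 CPM in Ch25h+/+ with tau, and 89.9, 112, 104 and 101 CPM in Ch25h+/+ without it. In Ch25h-/-, as labelled, it read 74.4, 67.0, 96.8 and 73.9 CPM with tau and 114, 109, 129 and 123 without. Within each genotype every Tau+ library lay below every Tau- library, and over both genotypes 7 of 8 did. The log2 fold change was -0.65 (SE 0.12, adjusted p = 0.000939 by edgeR), and -0.68 (SE 0.17, adjusted p = 0.0358) in Ch25h+/+. The Ch25h+/+ call was lost when any 1 of 7 libraries of that genotype was left out, all but Tau+ replicate 3 (adjusted p of up to 0.136), without the filter on low counts (0.125) and with nuclei of at least 1000 UMIs (0.0556). In Ch25h-/- the value was -0.61 (SE 0.16, adjusted p = 0.0525 by edgeR) and did not pass. With the library split as a term it did (-0.61, adjusted p = 0.0230 by edgeR). The split was drawn from these same counts and is no labelled batch, so that p may be too low. Each microglial value rests on 23 to 64 Gabbr1 UMIs.

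Of all genes tested in microglia for tau over both genotypes, 9.00% were called, and only 5 of the 26 members passed the filter on low counts there. Ambient RNA accounted for 26.7% of microglial Gabbr1. Markers of other classes moved in the same microglial sums, in both directions. Of 16 lists, 4 had a marker called lower and 4 had one called higher. The 13 inhibitory neuron markers summed to 390 to 619 CPM in Tau+ and 568 to 805 in Tau- libraries, with 4 of 4 tested below 0 and 2 called lower. The 10 astrocyte markers summed to 397 to 514 CPM in Tau+ and 475 to 689 in Tau-, with 5 of 5 tested below 0 and none called. The CA1 pyramidal list summed to 428 to 574 CPM in Tau+ and 542 to 672 in Tau-, with 3 of 3 tested below 0 and 1 called lower. The mural list (104 to 216 against 152 to 294 CPM) and that of other excitatory neurons (307 to 420 against 334 to 442) each had 1 marker called lower. In the other direction, the oligodendrocyte list summed to 319 to 521 CPM in Tau+ and 145 to 468 in Tau-, and the CA3 pyramidal list to 80.9 to 183 and 61.5 to 104, each with 1 called higher. The thalamic-type (452 to 616 against 428 to 641 CPM) and endothelial lists (45.4 to 82.0 against 38.4 to 86.2) also had 1 each called higher. Markers at 0 were Sp8 of the inhibitory list, Lhx1 and Lhx5 of the Cajal-Retzius list, Cyyr1 of the endothelial list, and Ebf1 and Kcnj8 of the mural list. The part of these lists in the Gabbr1 result was not tested. Among the other tested members, Gabrb1 and Gabra2, for which ambient RNA accounted for 100 and 89.2% in microglia, had log2 values of -0.49 and -0.37 and were not called. Gphn and Clptm1 had -0.04 and -0.02.

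Gabrg1 in astrocytes read 90.6, 120, 126 and 118 CPM in Ch25h+/+ Tau+ and 143, 130, 183 and 135 in Ch25h+/+ Tau-. Libraries labelled Ch25h-/- read 115, 105, 128 and 130 CPM with tau and 117, 156, 161 and 169 without. In Ch25h+/+ the 4 Tau+ libraries lay below the 4 Tau- libraries, while in Ch25h-/- replicate 1 without tau lay among the Tau+ values. The log2 fold change over both genotypes was -0.36 (SE 0.10, adjusted p = 0.0436 by edgeR), where 3.19% of astrocyte genes were called. The call was lost when any of 12 of the 16 libraries was left out (adjusted p of up to 0.104). Markers of other classes moved in the astrocyte sums too. The fibroblast list summed to 147 to 246 CPM in Tau+ and 223 to 284 in Tau-, with 4 of 4 tested below 0 and 1 called lower. The DG granule list summed to 2638 to 3151 CPM in Tau+ and 2409 to 2880 in Tau-, with 2 of 9 tested called higher, and the oligodendrocyte list to 161 to 274 and 91.8 to 249, with 1 of 9 called higher. The CA1 and CA3 pyramidal, Cajal-Retzius and OPC lists each had 1 called higher, and no marker of any list was at 0. Their part in the Gabrg1 result was not tested. Nor was it tested whether these markers were read from other cells or from astrocytes themselves. Slc6a11 in astrocytes ranged from 188 to 322 CPM in Tau+ and from 266 to 388 in Tau-, a log2 value of -0.35 (SE 0.11, adjusted p = 0.114), and Abat there had -0.26 (SE 0.10, adjusted p = 0.186). Neither passed, and both were chosen after their values were seen.

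**Figure D4:**
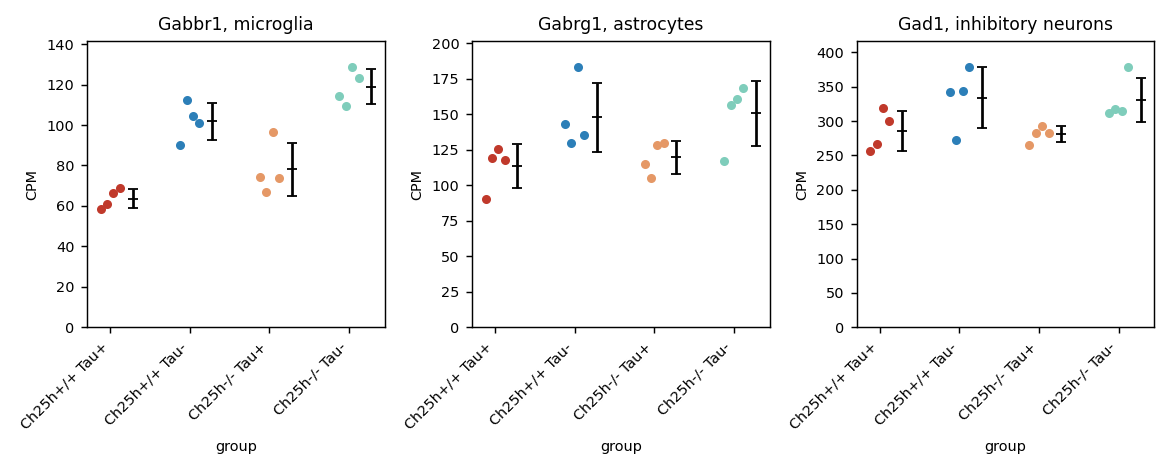
CPM (y axis, from 0) of Gabbr1 in microglia, Gabrg1 in astrocytes and Gad1 in inhibitory neurons by group (x axis), 1 point per library, with the mean and SD of 4 libraries in black. Gabbr1 in Tau+ (58.4 to 96.8 CPM) lies below Tau- (89.9 to 129 CPM) apart from 1 library, and the Gad1 ranges overlap in Ch25h+/+.

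Gad1 had a value below 0 in each of the 5 interneuron subclasses, and none was called. In Pvalb interneurons Gad1 ranged from 269 to 338 CPM with a median of 305 in 8 Tau+ libraries and from 302 to 417 with a median of 363 in 8 Tau- libraries. The ranges overlapped, with a log2 value of -0.27 (SE 0.08, unadjusted p = 0.00157 and adjusted p = 0.613 by edgeR). In Sst interneurons the value was -0.34 (SE 0.10, adjusted p = 0.786) and in all inhibitory neurons -0.23 (SE 0.07, adjusted p = 0.530), both named after their values were seen. In Cck, Lamp5 and Vip interneurons Gad1 had -0.24, -0.20 and -0.11. Outside the interneurons the values were 0.10 in DG granule neurons, 0.01 in OPCs and -0.23 in astrocytes (SE 0.24, adjusted p = 0.765), where ambient RNA accounted for 55.9% of Gad1. Gad2 and Slc32a1 were called in no class or subclass tested.

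**Figure D5:**
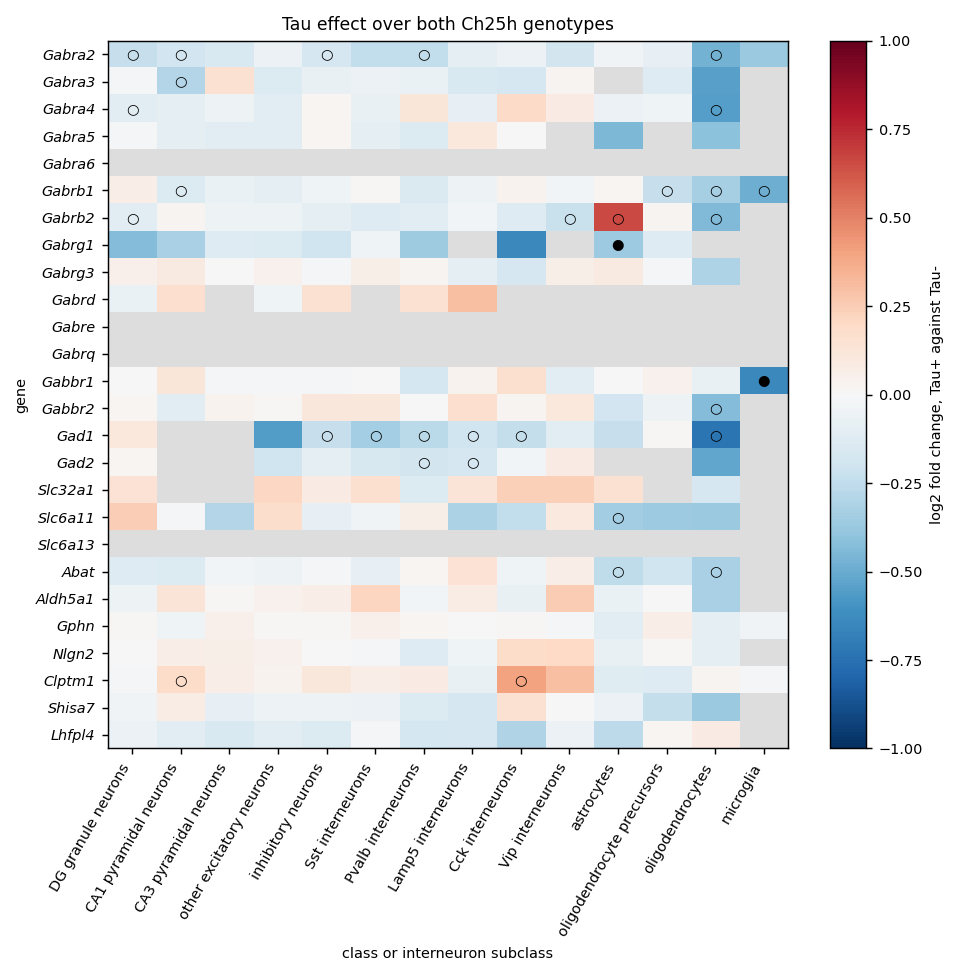
Log2 fold change of Tau+ against Tau- over both Ch25h genotypes (colour) for each gene (row) and class (column), with a filled circle at an adjusted p under 0.05, an open circle at an unadjusted p under 0.05, and grey where the gene did not pass the filter on low counts. The 2 filled circles are Gabrg1 in astrocytes and Gabbr1 in microglia, and 18 of 20 values in oligodendrocytes are below 0.

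In oligodendrocytes 18 of 20 tested members had a value below 0, with a median log2 value of -0.35 against -0.01 over all 11957 genes tested there, and none was called by edgeR. In this class ambient RNA accounted for all of the UMIs of at least Gabra2, Gabra3, Gabra4, Gabrb1, Gabrb2, Gabrg3, Gabbr2, Gad1, Gad2 and Slc32a1. In DG granule, CA1, CA3 and inhibitory neurons the members' medians lay between -0.04 and -0.01, and none was called by edgeR. In other excitatory neurons and the interneuron subclasses the medians ran from -0.12 (Pvalb) to 0.06 (Vip), also without a call. The median in astrocytes was -0.07. DESeq2 called 3 pairs for this comparison against 2 by edgeR, and the further pair was Gabrb1 in CA1 pyramidal neurons.

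Within each Ch25h genotype the tau comparison gave fewer calls. In Ch25h+/+, 1 of 269 pairs was called, Gabbr1 in microglia, a call that single libraries decided as given above, with 0.191% of all pairs called. The lowest unadjusted p after it belonged to oligodendrocytes. There Gad1 read 3.13 to 3.93 CPM with tau and 6.19 to 7.20 without (log2 value -0.93, SE 0.29, adjusted p = 0.517 by edgeR), and Abat 14.3 to 22.2 and 19.2 to 32.7 CPM (-0.57, SE 0.18, adjusted p = 0.546). In Ch25h-/-, 0 of 269 pairs were called, with 0.140% of all pairs called and 0 member pairs by DESeq2. An unadjusted p under 0.05 was found for 25 member pairs (9.29%), against 7.20% of all pairs. With the library split (from these same counts) as a term 2 pairs were called there, Gabbr1 in microglia and Gabra3 in CA1 pyramidal neurons. With doublets kept 1 was called. After Gabbr1 in microglia, the lowest p belonged to Gabrb1 in CA1 pyramidal neurons, from 954 to 1031 CPM with tau and 1106 to 1175 without (-0.18, SE 0.06, adjusted p = 0.180). Gabrd in Lamp5 interneurons followed, at 39.4 to 63.1 CPM with tau and 24.2 to 40.6 without (0.68, SE 0.22, adjusted p = 0.835).

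For loss of Ch25h none of the 269 pairs tested, from 22 of the 26 genes, passed the adjusted threshold. In Tau+ 0 of 269 pairs were called (0.00488% of all pairs), in Tau- 0 (0.00305%) and over both tau states 0 (0.0104%), with edgeR, and DESeq2 also called 0 in each. In the same order, 7, 10 and 9 member pairs had an unadjusted p under 0.05. These are 2.60, 3.72 and 3.35% of member pairs, against 3.49, 3.40 and 2.98% of all pairs. Gabra5 in Lamp5 interneurons had the lowest unadjusted p. It read 68.9, 78.3, 57.9 and 81.1 CPM in Ch25h-/- Tau- and 105, 112, 103 and 105 in Ch25h+/+ Tau-, without overlap (log2 value -0.57, SE 0.16, unadjusted p = 0.000898, adjusted p = 0.999). In Tau+ its ranges overlapped, from 81.2 to 119 CPM in Ch25h-/- and from 78.3 to 112 in Ch25h+/+. Gabrg3 in Pvalb interneurons averaged 2985 and 2586 CPM in Ch25h-/- Tau- and Ch25h+/+ Tau- (0.21, SE 0.07, adjusted p = 1), and Nlgn2 in OPCs 108 and 75.9 CPM (0.50, SE 0.18, adjusted p = 1).

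In Tau+ the lowest p for Ch25h loss belonged to Gabra3 (1.31, SE 0.38) and Slc32a1 (-0.59, SE 0.24) in oligodendrocytes, where both read at most 8.36 CPM and ambient RNA accounted for all of it, and to Slc6a11 in Lamp5 interneurons, at 22.9 ± 5.85 and 33.9 ± 7.92 CPM (n = 4 each) in Ch25h-/- and Ch25h+/+ (-0.55, SE 0.24). Over both tau states they belonged to Slc32a1 (-0.51, SE 0.18) and Gabra3 (0.76, SE 0.28) in oligodendrocytes and Gabrg3 in Sst interneurons (0.24, SE 0.10). The adjusted p of each was 1 by edgeR.

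The interaction, which tests whether the tau effect differs between the Ch25h genotypes, was called for 0 of 269 pairs (0.00% of all pairs, 0 member pairs by DESeq2). An unadjusted p under 0.05 was found for 11 member pairs (4.09%), against 4.05% of all pairs. The lowest p of the interaction belonged to Gabra5 in Lamp5 interneurons (0.68, SE 0.22), Slc6a11 in inhibitory neurons (-0.55, SE 0.21) and Gabrd in Lamp5 interneurons (0.75, SE 0.32), each with an adjusted p of 1 by edgeR. The tau effects of Gabbr1 in microglia were therefore not shown to differ between the genotypes.

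Genes that work beside these receptors and enzymes were read from a list of 47, in 509 pairs per comparison. For tau over both genotypes 7 pairs were called by edgeR, 3 higher and 4 lower, all in astrocytes or microglia, where 3.19 and 9.00% of all genes were called, against 0.783% over all classes. Slc38a1, a glutamine transporter that feeds transmitter synthesis in neurons, rose in astrocytes, from 56.4 ± 14.2 to 150 ± 14.4 CPM in Ch25h+/+ and from 71.1 ± 23.3 to 116 ± 31.7 in Ch25h-/- (n = 4 each). Its log2 fold change was 1.08 (SE 0.16, adjusted p = 0.00161), and in Ch25h+/+ alone 1.43 (SE 0.22, adjusted p = 0.00861), the only partner called there, against 0.191% of all pairs. Neto2, an auxiliary protein of kainate receptors, rose in astrocytes by 1.26 on the log2 scale (SE 0.27, adjusted p = 0.0167). Both stood in the same astrocyte sums as the markers of other classes given above, where the DG granule list had 2 markers called higher and the CA1 pyramidal, CA3 pyramidal, Cajal-Retzius, oligodendrocyte and OPC lists 1 each. The oligodendrocyte list had a median log2 value of 0.51. The part of these markers and of ambient RNA in the rises of Slc38a1 and Neto2 was not tested. Whether the markers came from other cells or from astrocytes themselves was not tested either. In microglia Trak1, a motor adaptor, rose by 0.61 on the log2 scale (SE 0.17, adjusted p = 0.0254).

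The 4 partners called lower were all in microglia by edgeR, and 3 of them are given here. Glul, glutamine synthetase, had -0.44 (SE 0.11, adjusted p = 0.0146), and Kctd12, an auxiliary subunit of GABA-B receptors, had -0.35 (SE 0.10, adjusted p = 0.0320). Plcl2, a catalytically inactive relative of phospholipase C that takes part in GABA-A receptor trafficking, had -0.32 (SE 0.08, adjusted p = 0.0127). They and Trak1 stood in the same microglial sums as the markers of other classes given above, whose part was not tested, nor was that of ambient RNA. No partner was called in a neuronal class or for Ch25h loss.

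Some of these genes overlap other genes, and whether reads were shared between them was not tested. Gabra4 and Gabrb1 lie head to head on chromosome 5 and overlap by 196 bases in GENCODE M21, and 11 of the 26 genes overlap a gene on the other strand. The strand used for counting is not given in the sources used here, so whether it kept such reads apart is not known from them.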

How the data were processed

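Per the labels' protocols, nuclear RNA of 16 hippocampal libraries was prepared with the Chromium 3' kit, version 3.1. The authors deposited unfiltered UMI counts, and the file headers name Cell Ranger 4. The submitters' processing notes list mm10, Cell Ranger 3.1.0 and Seurat. The annotation, the strand and the counting of introns are not given in the sources used here. Replicates were numbered in accession order.

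Barcodes with at least 500 UMIs, 300 genes and at most 5% mitochondrial UMIs were taken as nuclei (a floor of 3 times the empty barcodes' median removed none), and Scrublet's highest scores (0.8% per 1000 nuclei) were removed. Leiden clusters (scanpy 1.11.5, resolution 1, 50 components of 3000 variable genes without the members) took a class name at 3 markers 2-fold above the rest. A name was withheld for a tie of classes, leading genes of another class, over 50% doublets, or shallow depth without leading genes of the class. Inhibitory nuclei without a named subclass were left out of the inhibitory class, and 12.1% of nuclei stayed unnamed. UMIs were summed per library and class with 20 nuclei in every library and tested with edgeR 4.0.16 (quasi-likelihood, TMM, filterByExpr) in 7 two-sided contrasts, adjusted over all genes of a class and called at 0.05. DESeq2 1.42.0 was an alternative. On counts simulated from astrocytes (12608 genes, tau over both genotypes), 91.8% of tested genes changed by 1 on the log2 scale were recovered. The simulation used a fixed spread and left out the split between libraries. It does not show what would be recovered for smaller changes or in other classes. Called pairs were named, and otherwise the 3 lowest p per contrast. Members, lists and rules were chosen with earlier results of these data known. Positions are GENCODE M21 (GRCm38). Levels are precise to counting error and library spread only. A partner gene counted among those called is not reported here by name.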

Additional observations from a re-analysis of the deposited data

Results flagged for a closer look

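Within a group of 4 libraries, 2 of the named values had a library far from the other 3, and chance flags about 1 in 20 groups. All 4 groups of 15 named pairs of a gene and a class were screened, so 2 flags are within what chance gives. Gabrg3 in Sst interneurons read 542 CPM in Ch25h+/+ Tau- replicate 1 against 444 to 456 CPM in the other libraries of its group. Slc6a11 in Lamp5 interneurons read 14.2 CPM in Ch25h-/- Tau+ replicate 4 against 25.3 to 26.7 CPM in the others. Neither gene was called in the comparisons that use these groups.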

How the results depend on the processing

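Each of 21 named values was refitted under 24 alternatives, and 0 reversed. The 3 values that were called lost the call in 26 of 72 such fits: Gabrg1 in astrocytes in 14, Gabbr1 in microglia in 11 for Ch25h+/+ and in 1 over both genotypes. The 18 values that were not called stayed so in 427 of 432 fits, and the 5 that gained a call were of Gabbr1 in Ch25h-/- microglia. For tau in Ch25h+/+ the count of called pairs went from 1 to 0 without the filter on low counts, in the first or second set of libraries alone, and with nuclei of at least 1000 UMIs, and it was 0 to 1 without single libraries. For tau in the libraries labelled Ch25h-/- it went from 0 to 2 with the library split as a term (Gabbr1 in microglia and Gabra3 in CA1 pyramidal neurons). That split was drawn from these same counts. With doublets kept the count was 1, and without single libraries it was 0 to 1. For tau over both genotypes it was 1 to 2 without single libraries and 0 in the second set alone, which has 2 libraries per group, while DESeq2 called 3, adding Gabrb1 in CA1 pyramidal neurons. Gabbr1 in microglia over both genotypes was called without each library (log2 value -0.70 to -0.61) and not in the second set alone (-0.57, adjusted p = 0.251 by edgeR). In Ch25h+/+ its call was lost without 7 of 16 libraries (adjusted p of up to 0.136). Gabrg1 in astrocytes was not called in either set alone (-0.34 and -0.37). Of 364 gene and class levels, 248 reached 10 CPM, and 230 did after ambient RNA was subtracted. No paired analysis was possible because the labels give no replicate numbers. Only 5 members were tested in microglia, which limits what can be seen there. Microglia had a median of 1449 UMIs per nucleus, and why few members passed the filter was not tested.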
